A study of Mus musculus with 24 samples.

Results

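Immediate early genes are transcribed within minutes of a stimulus and without new protein synthesis. Of the genes considered here, Fos and Fosb encode FOS proteins and Jun and Junb encode JUN proteins, which pair to form the AP-1 transcription factor. Egr1 encodes a zinc-finger transcription factor, Npas4 a neuronal bHLH-PAS transcription factor, and Nr4a1 an orphan nuclear receptor, while Arc encodes a postsynaptic protein that acts in the removal of AMPA receptors from synapses. In neurons these genes are induced by synaptic activity, through calcium signaling to CREB, SRF and MEF2 proteins at promoters and enhancers. The members were the 8 genes just named, of 21951 protein-coding genes in GENCODE vM21. They were chosen by name, and every peak that overlaps the gene body or the 50 kb on either side was assigned to the gene (470 of 314954 peaks).

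The peaks come from ChIP-seq of cortex from wild-type (WT) mouse embryos at 2 stages, E15.5 and E18.5. The antibodies were raised against FOXP1, which belongs to the forkhead family, TCF7L2, an HMG-box factor of the Wnt pathway, and ARID1B, which is part of the BAF remodeler (the labels give TCF4 where the methods give TCF7L2). No library was stimulated or treated, the mice were on a CD1 background, and whole cortex mixes progenitors, neurons and other cells. The 24 libraries comprise 2 ChIP and 2 input replicates for each transcriptional regulator (TR) and stage, but only 1 peak list was deposited for each TR and stage. It is filed with the first replicate, while the methods describe calling on both replicates merged, and the lists were read as merged here. Either way no spread between replicates and no test was available, and differences between lists also carry differences in depth and antibody. The depth recovered from the lists, counted as reads of whichever library of a ChIP and input pair was smaller, lay between 57.3 and 80.7 M except in the FOXP1 list of E18.5 (26.3 M). A peak's height is its fold enrichment as MACS2 writes it, the scaled reads at the summit plus 1 over the background plus 1. The added 1 lowers the values most where the background is low, as in the FOXP1 list of E18.5 (2.81 reads, against 6.90 at E15.5). The 95% intervals below are exact Poisson intervals of the reads at the summit and cover counting error only.

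The members are short genes, from 3189 bp (Jun) to 20527 bp (Nr4a1), and their surroundings differ. Fos (chr12:85473890-85477273, plus strand) and Jun (chr4:95049034-95052222, minus strand) have 0 other protein-coding genes within 50 kb. Junb (chr8:84974484-84978718, minus strand) has 9 and Fosb (chr7:19302696-19310051, minus strand) has 7. Npas4 (chr19:4984355-4990316, minus strand) has 5, and Arc (chr15:74669083-74672570, minus strand) and Nr4a1 (chr15:101254269-101274795, plus strand) have 4 each. Egr1 has 3 (Etf1, Kdm3b and Reep2). Nr4a1 has 3 annotated transcription start sites (TSSs) spread along the gene.

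The sequences shown are the promoters of Fos, Jun, Junb and Nr4a1, where all 3 TRs had peaks, and 3 loci outside promoters that the results below turn on. The promoters are the 250 bases before the RefSeq start (GRCm38.p6), 5′ to 3′ on the strand of the gene. RefSeq promoter sequences were used for 6 of the 8 members. Arc was not matched in the table of these sequences, and Egr1 was left out of the sequence search by choice. Capitals mark matches to the motifs listed after the sequences.

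Fos promoter (chr12:85473640-85473889, plus strand): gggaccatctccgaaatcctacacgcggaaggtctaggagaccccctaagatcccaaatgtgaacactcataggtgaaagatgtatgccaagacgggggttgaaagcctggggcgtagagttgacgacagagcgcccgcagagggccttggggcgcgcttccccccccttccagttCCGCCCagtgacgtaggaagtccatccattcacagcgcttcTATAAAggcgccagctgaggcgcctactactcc
Jun promoter (chr4:95052223-95052472, minus strand): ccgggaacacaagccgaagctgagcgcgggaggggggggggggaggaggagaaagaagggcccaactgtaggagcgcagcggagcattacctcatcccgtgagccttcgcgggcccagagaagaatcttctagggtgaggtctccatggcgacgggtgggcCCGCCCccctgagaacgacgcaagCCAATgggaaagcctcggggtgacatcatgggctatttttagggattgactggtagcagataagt
Junb promoter (chr8:84978749-84978998, minus strand): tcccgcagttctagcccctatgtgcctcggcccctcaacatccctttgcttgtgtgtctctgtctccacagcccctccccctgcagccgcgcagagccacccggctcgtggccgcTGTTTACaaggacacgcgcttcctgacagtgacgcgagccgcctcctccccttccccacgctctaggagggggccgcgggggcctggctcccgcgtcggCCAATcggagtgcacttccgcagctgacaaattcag
Nr4a1 promoter (chr15:101266596-101266845, plus strand, at the internal start): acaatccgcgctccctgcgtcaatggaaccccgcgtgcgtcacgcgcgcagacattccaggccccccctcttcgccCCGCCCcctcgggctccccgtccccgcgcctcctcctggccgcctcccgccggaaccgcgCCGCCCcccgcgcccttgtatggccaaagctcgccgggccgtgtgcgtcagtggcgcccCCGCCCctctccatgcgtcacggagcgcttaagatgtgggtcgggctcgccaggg

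The loci are the 200 bases around the median summit of the 6 lists, on the plus strand of GRCm38.p6. None of the 3 windows overlaps an annotated gene.

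Fos, 18.4 kb upstream (chr12:85455410-85455609): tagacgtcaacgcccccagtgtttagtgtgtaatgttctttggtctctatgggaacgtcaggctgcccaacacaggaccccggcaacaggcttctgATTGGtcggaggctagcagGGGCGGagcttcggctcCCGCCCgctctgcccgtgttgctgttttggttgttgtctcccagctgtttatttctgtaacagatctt
Npas4, 11.8 kb upstream (chr19:5001970-5002169): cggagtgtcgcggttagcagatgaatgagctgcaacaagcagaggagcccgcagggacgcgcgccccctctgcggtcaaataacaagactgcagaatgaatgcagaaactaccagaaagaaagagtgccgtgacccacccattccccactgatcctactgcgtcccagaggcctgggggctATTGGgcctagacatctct
Nr4a1, 7.7 kb upstream (chr15:101246483-101246682): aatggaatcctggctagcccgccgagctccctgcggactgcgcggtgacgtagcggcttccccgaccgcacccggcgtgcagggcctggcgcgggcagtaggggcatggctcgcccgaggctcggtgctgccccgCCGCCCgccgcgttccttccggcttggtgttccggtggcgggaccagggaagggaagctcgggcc

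Motifs were searched on both strands by exact letters: the cAMP response element (TGACGTCA), AP-1 (TGANTCA), the CArG box (CCWWWWWWGG), a forkhead core (TGTTTAC), TCF/LEF (CTTTGAT or CTTTGAA), SP/KLF (GGGCGG), EGR (GCGTGGGCG), a CCAAT box (CCAAT) and a TATA box (TATAAA). Here N is any base and W is A or T. Overlapping matches of a motif were each kept. Of the 6 promoters searched, 5 (all but Junb) held SP/KLF, against 32.7% of the 32851 promoters in the table. The window of Npas4, 1 of these 5, lies wholly in an annotated UTR of GENCODE. Jun and Junb held CCAAT (33.9% of the table), Fos held TATAAA (12.4%), and Junb held the forkhead core (3.17%), 129 to 135 bases before its start. The cAMP response element, AP-1, the CArG box, TCF/LEF and EGR matched in 0 of the 6, against 1.55%, 6.75%, 1.47%, 7.48% and 0.536% of the table. These letters were therefore not in these windows, which reach 250 bases upstream of the start. Of 6 loci outside promoters that had peaks in all 6 lists and were searched, 5 held SP/KLF, against 15.3% (ARID1B, E15.5) to 36.3% (FOXP1, E18.5) of all summit windows of a list. CCAAT was found in 2 of these 6, against 21.9% to 25.2%, and the forkhead core, TCF/LEF and AP-1 in 0, against 1.98% to 3.49%, 4.46% to 6.38% and 3.50% to 5.20%. The summit windows of a list include promoter peaks and peaks absent from other lists. Shares over all loci outside promoters with peaks in all 6 lists were not computed, so these are not shares of like loci.

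All 8 members had a peak in their own promoter, taken as the 2000 bp upstream of any TSS, in each of the 6 lists (48 of 48 pairs of member and list). The share of all protein-coding genes bound by ARID1B in this way was 58.8% in the E15.5 list and 57.3% in the E18.5 list. The corresponding shares were 61.8% and 55.0% for FOXP1 and 57.3% and 61.2% for TCF7L2. A promoter peak in all 6 lists was found for 51.8% of protein-coding genes. A locus of all 3 TRs, the union of overlapping peaks at 1 stage, lay at the promoter of 8 of 8 members at both stages, against 56.6% (E15.5) and 53.8% (E18.5) of protein-coding genes. With only peaks of −log10 p of at least 15, 5 members had such a locus at the earlier stage and 4 at the later one, against 39.6% and 35.1% of protein-coding genes.

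These peaks were near or below the height of other bound promoters in most lists. For the ARID1B, FOXP1 and TCF7L2 lists of E15.5, the median of the members' highest promoter peak was 4.59, 8.92 and 6.14, against medians of 5.17, 10.6 and 6.40 over the protein-coding genes with a promoter peak. At E18.5 it was 5.61, 7.62 and 7.06, against 5.61, 8.65 and 6.57. The number of members above the median of bound genes was 2, 2 and 4 in these lists and 3, 1 and 6 in those of the later stage.

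**Figure D1:**
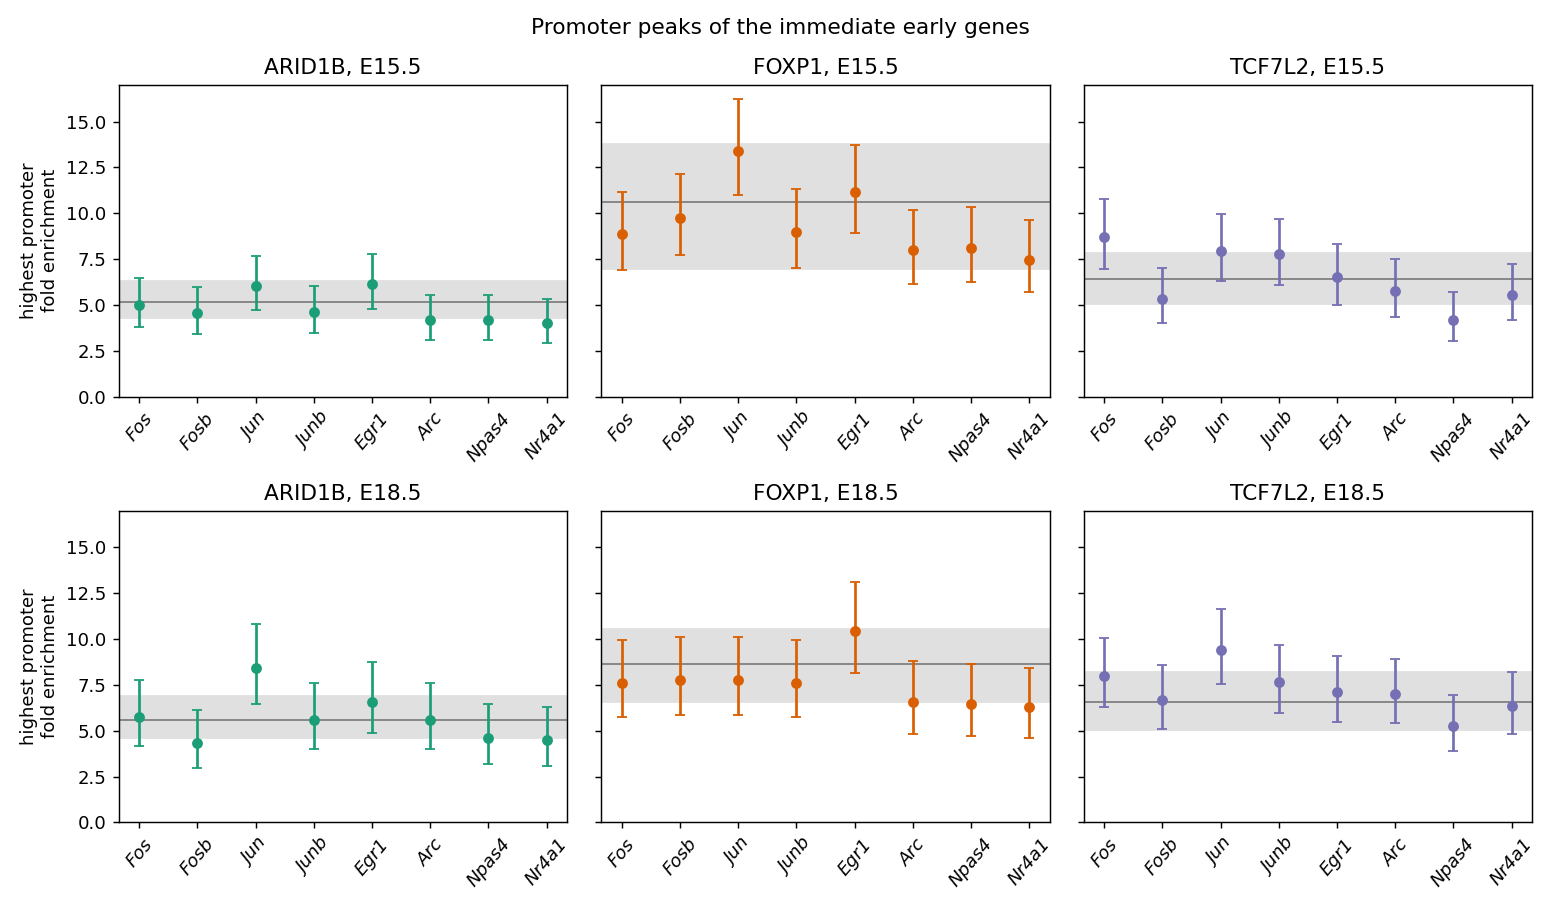
Highest promoter fold enrichment (vertical axis, ratio) of each member in each of the 6 lists, with 95% counting intervals as bars. The gray band and line give the quartiles and median over all protein-coding genes with a promoter peak in that list. The members lie mostly within or below the band, with Jun at 13.4 for FOXP1 at E15.5 as the highest value.

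Among the 4 AP-1 genes, Jun was the highest in 4 of 6 lists, equal to Fosb for FOXP1 at E18.5 and below Fos for TCF7L2 at E15.5. In what follows, a set of 3 fold enrichments is in the order ARID1B, FOXP1, TCF7L2. The promoter of Jun had 6.06, 13.4 and 7.96 at E15.5, then 8.42, 7.77 and 9.41 at E18.5. In each list it was 1 broad peak, 1876 bp (FOXP1, E18.5) to 4316 bp (TCF7L2, E18.5) wide, wider than 98.8% to 99.8% of the highest promoter peaks of bound protein-coding genes. In every list this peak also overlapped the promoter of the noncoding gene Junos. In the E15.5 lists and in TCF7L2 at E18.5 it overlapped that of the noncoding gene Gm12703 too. The width is thus not that of the Jun promoter alone. The summits of the peak lay 147 to 573 bp upstream of the single TSS of Jun.

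Fos had 4.99, 8.86 and 8.69 at E15.5, then 5.75, 7.62 and 7.99 at E18.5. All 3 TRs had a peak near the TSS and another with its summit 1475 to 1771 bp upstream of it. For FOXP1 and TCF7L2 the peak near the TSS was the higher one, with summits 140 to 184 bp upstream, within the sequence shown, and the upstream peak had 4.94 and 4.94 at E15.5, then 4.97 and 4.38 at E18.5. The intervals of these 2 peaks overlapped only for FOXP1 at E18.5. For ARID1B the upstream peak was nominally higher, 4.99 against 4.55 at E15.5 and 5.75 against 4.63 at E18.5, with overlapping intervals. Each list had 2 to 4 separate peaks in the Fos promoters.

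Fosb had 4.55, 9.75 and 5.35 at E15.5, then 4.35, 7.77 and 6.68 at E18.5. Its highest TCF7L2 peak at E18.5 had its summit 1333 bp downstream of the first TSS and 882 bp downstream of an internal one, and was counted as promoter since the peak, 1953 bp wide, reached into it. The other 5 lists had a peak at that place that stopped short of the promoter and was counted as genic, with fold enrichments of 4.81, 11.3 and 5.56 at E15.5 and 5.47 (ARID1B) and 9.98 (FOXP1) at E18.5.

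Junb had 4.64, 8.99 and 7.75 at E15.5, then 5.61, 7.62 and 7.66 at E18.5. Each list had a peak at 3 places, near the first TSS, 1190 to 1326 bp upstream of it, and 2059 to 2360 bp downstream of it near an internal TSS. Which of these was the highest differed between TRs, but its interval overlapped those at the other 2 places in every list. For ARID1B at E15.5, for example, the values were 4.64 downstream, 4.55 near the first TSS and 3.84 upstream.

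The zinc-finger gene Egr1 (chr18:34859823-34864984, plus strand) had 6.15, 11.1 and 6.50 at E15.5, then 6.59, 10.4 and 7.12 at E18.5, so that with Jun it held the highest value of the members in 5 of 6 lists. The summits of FOXP1 and TCF7L2 lay 970 to 1188 bp downstream of the first TSS, just upstream of an internal one, while those of ARID1B lay 35 and 54 bp upstream of the first TSS. ARID1B at E18.5 also had a lower peak 1483 bp downstream (4.77), with an interval that overlapped that of the higher one. The peaks were 1508 to 3058 bp wide, wider than 92.4% to 99.1% of those of bound genes.

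Npas4 and the receptor gene Nr4a1 were among the 3 lowest members in every list. Arc had 4.19, 7.97 and 5.77 at E15.5, then 5.61, 6.59 and 7.01 at E18.5, with the summits of these highest peaks within 244 bp of its first TSS. Npas4 had 4.19, 8.10 and 4.21 at E15.5, then 4.63, 6.44 and 5.25 at E18.5, lower than Arc in 4 of 6 lists and equal to it in ARID1B at E15.5. Nr4a1 had 4.01, 7.47 and 5.56 at E15.5, then 4.49, 6.30 and 6.35 at E18.5. Every list had a promoter peak near the first TSS of Nr4a1 and another 12333 to 12502 bp downstream, next to the internal TSS whose promoter is shown above, and the intervals of both overlapped in each list. At the first TSS the promoter values were 3.93, 7.47 and 3.68 at E15.5, then 3.51, 6.30 and 3.61 at E18.5. Separate peaks just downstream of that TSS, counted as genic, had 4.01 (ARID1B, E15.5), 3.68 (TCF7L2, E15.5) and 3.94 (TCF7L2, E18.5). At the internal TSS they were 4.01, 6.58 and 5.56 at E15.5, then 4.49, 6.30 and 6.35 at E18.5. The counting intervals of neighboring members overlap in most lists. In ARID1B at E15.5, for example, the lowest value, 4.01 (2.95 to 5.35) for Nr4a1, and the highest, 6.15 (4.80 to 7.77) for Egr1, had overlapping intervals.

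Between stages, the highest promoter peak of ARID1B was higher at E18.5 in 7 of 8 members (all but Fosb), and that of TCF7L2 in 6 of 8 (all but Fos and Junb). The highest peaks of the 2 stages need not lie at the same place. For TCF7L2 at Fosb, the peak 182 bp upstream of the TSS at E18.5 had 6.13, against 6.68 for the highest one and 5.35 at E15.5. That of FOXP1 was lower at E18.5 in 8 of 8, but this rested in part on the added 1. Without it, FOXP1 was lower in 7 of 8 and higher at Egr1 (12.6 at E15.5, 13.8 at E18.5), and Fos and Junb were nearly level, with log2 ratios of −0.0036 and −0.024. The median log2 ratio of E18.5 to E15.5 was 0.18 in the members and 0.11 in all bound genes for ARID1B, −0.26 and −0.35 for FOXP1, and 0.22 and 0.08 for TCF7L2. Without the added 1 the medians were 0.24 and 0.17 for ARID1B, −0.053 and −0.14 for FOXP1, and 0.18 and 0.045 for TCF7L2, so most of the FOXP1 difference in the members came with the added 1. By the smaller library of each pair, the stages differ in depth most for FOXP1 (64.5 M reads at E15.5 and 26.3 M at E18.5). By the recovered ChIP library they differ most for ARID1B (94.3 M at E15.5 and 57.3 M at E18.5). The ChIP depths were 64.5 M and 46.9 M for FOXP1 and 77.5 M and 76.1 M for TCF7L2. The part of depth in these ratios was not tested.

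**Figure D2:**
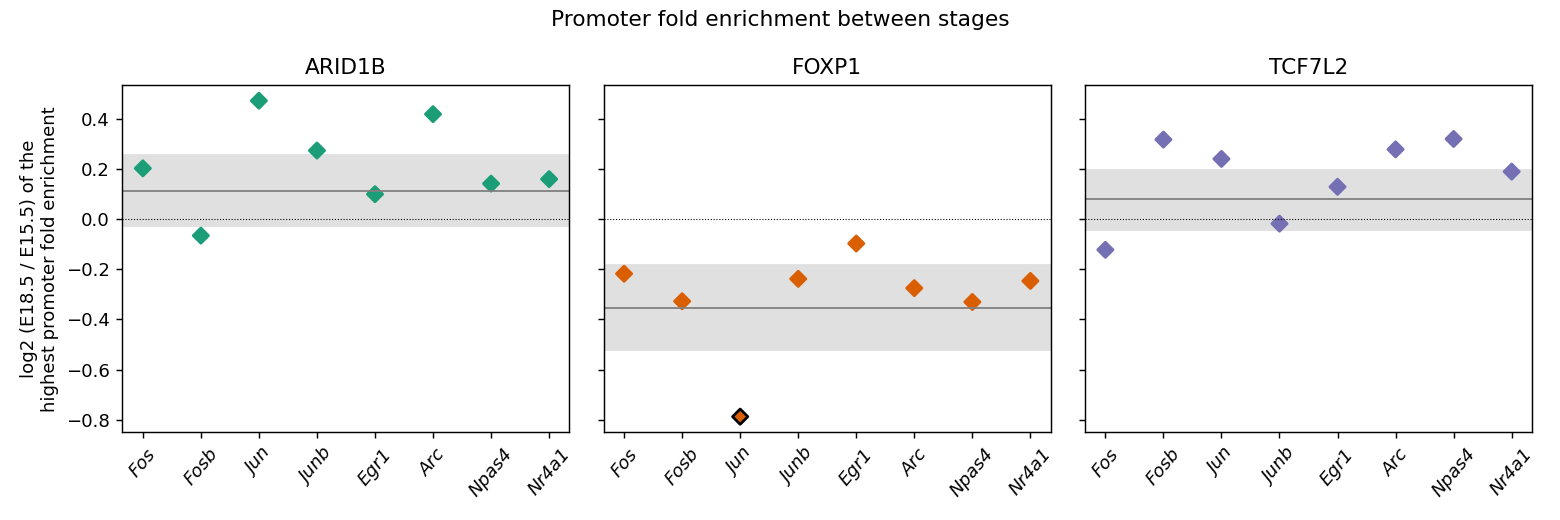
Log2 ratio of E18.5 to E15.5 of the highest promoter fold enrichment (vertical axis) of each member, by TR. The gray band and line give the quartiles and median over all protein-coding genes bound at both stages, the dotted line marks 0, and the black outline marks the member whose intervals do not overlap (Jun for FOXP1, −0.79). Values include the added 1, without which the Jun ratio was −0.58 and its intervals overlapped.

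Intervals of the 2 stages did not overlap in 1 of 8 members for FOXP1, against 12.7% of bound protein-coding genes. That member was Jun, with 13.4 (11.0 to 16.2) at E15.5 and 7.77 (5.85 to 10.1) at E18.5. Without the added 1, the Jun values were 15.2 (12.4 to 18.4) and 10.2 (7.57 to 13.4), which overlapped, and the count was 0 of 8 for each TR, against 0.244% of bound genes for ARID1B, 5.69% for FOXP1 and 0.152% for TCF7L2. With it, the count for ARID1B and TCF7L2 was 0 of 8, against 0.179% and 0.168%. With 99% intervals the count for FOXP1 was 0, against 6.03%. When the summit had to lie in the promoter, the count for TCF7L2 was 1 (Arc), against 1.20%. That setting set different peaks side by side, a lower one 860 bp upstream of the Arc TSS at E15.5 (3.79) and the main one at E18.5 (7.01), because the main summit at E15.5 lay 13 bp downstream of the TSS. The intervals of the main peaks (5.77 and 7.01) overlapped.

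Beyond the promoters, the windows held 107 peaks outside all promoters at E15.5 and 88 at E18.5. Of all 470 peaks in the windows, 188 lay in the promoter of another gene, 167 in flanking sequence, 87 in the member's own promoter and 28 within its gene body. The median number of peaks outside promoters per member was 2.5 (FOXP1, E18.5) to 6 (FOXP1, E15.5). Over the windows of the 11943 protein-coding genes no longer than Nr4a1, the median was 0 for TCF7L2 at E15.5 and for FOXP1 at E18.5 and 1 in the other lists. At least 6 of 8 members lay above that median in each list. Of those 11943 genes, 4853 had a promoter peak in all 6 lists, as every member did. A median over such bound genes alone was not computed.

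**Figure D3:**
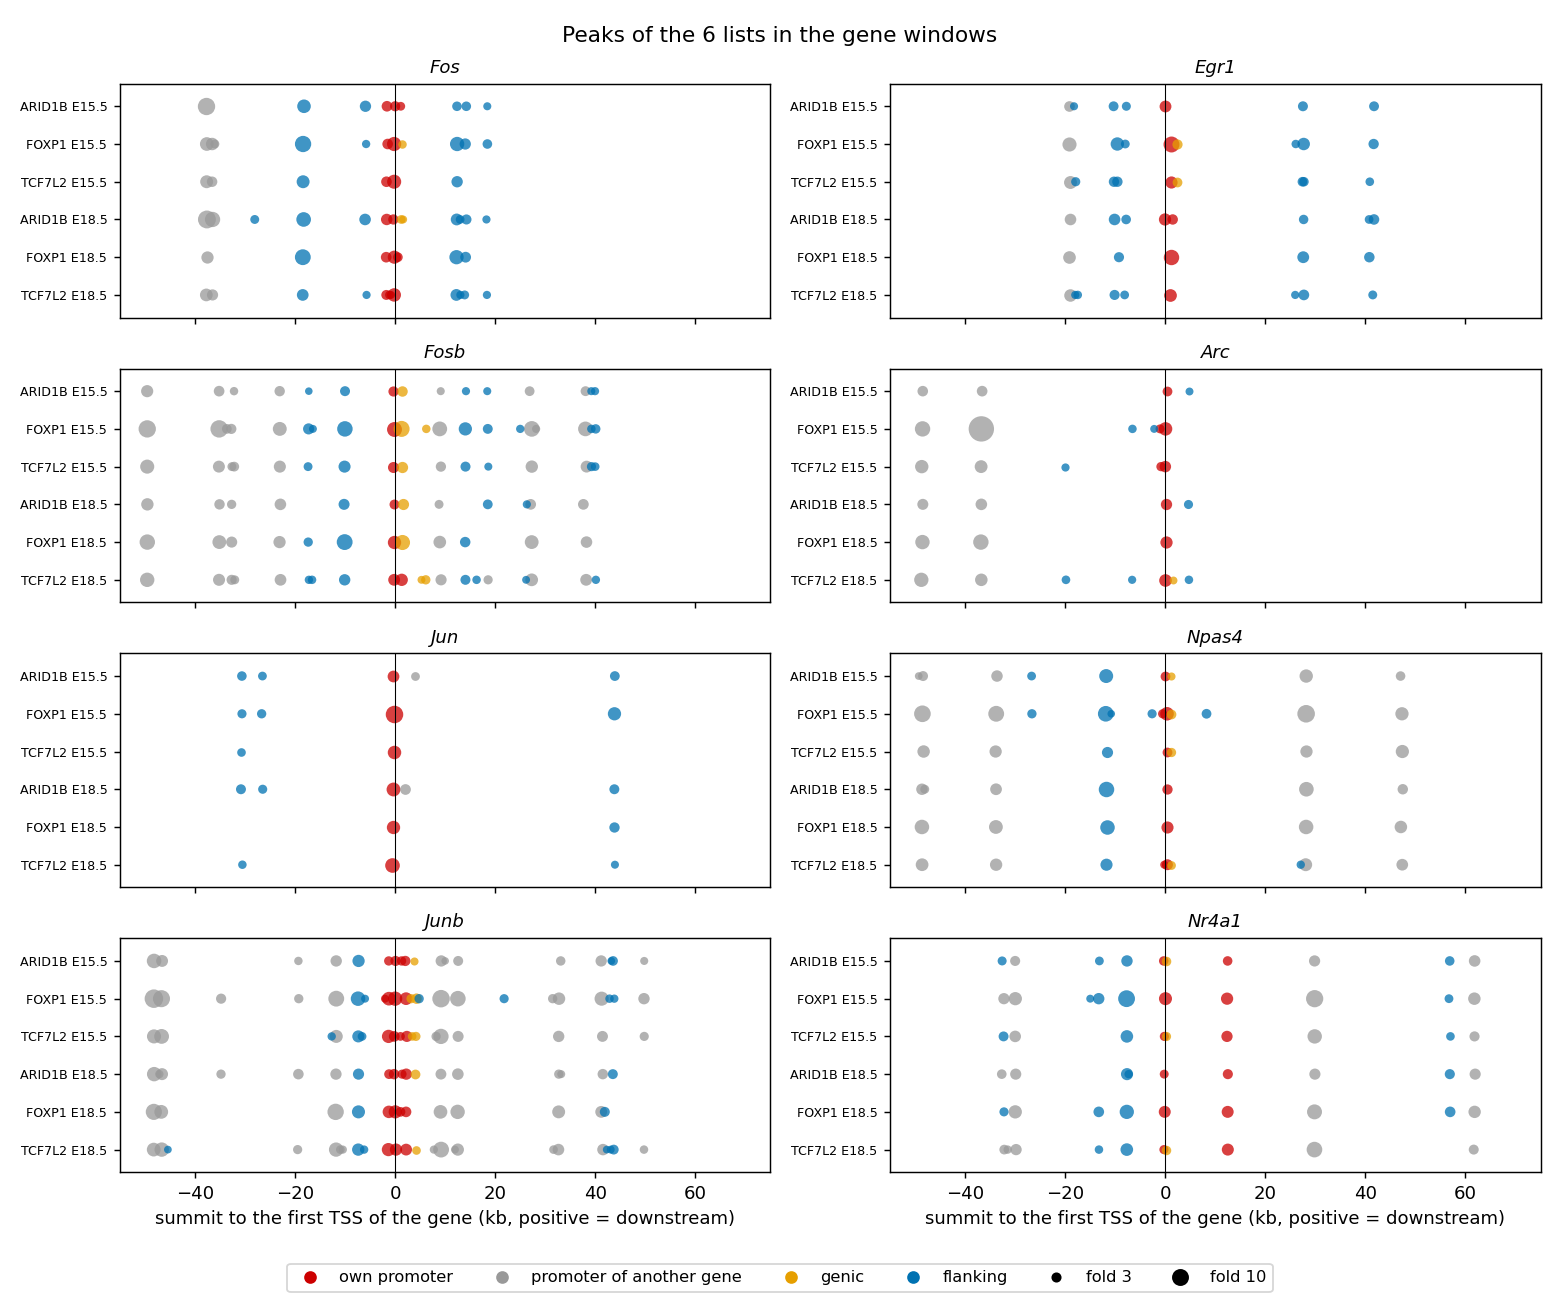
Summits of all peaks in the 8 windows by distance from the first TSS (horizontal axis, kb, positive downstream), with 1 row per list and point area proportional to fold enrichment. Colors give the class of the peak. Columns of points of 1 color across the 6 rows are loci present in every list, such as that 18.4 kb upstream of Fos, and the Arc window has few blue points.

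Overlapping peaks outside promoters were merged over the 6 lists into loci. The windows held 61 such loci, of which 9 had a peak in all 6 lists and 19 in 1 list. Loci in 1 list made up 31.1% of the members' loci and 37.4% of all such loci in the genome. Of the latter 6.17% had a peak in all 6 lists, and of those in the windows of protein-coding genes no longer than Nr4a1 8.69%. Egr1 had 3 of the 9, Fos had 2, and Fosb, Junb, Npas4 and Nr4a1 had 1 each, while Jun and Arc had 0.

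The locus 18.4 kb upstream of Fos, shown above, had fold enrichments of 8.10, 11.6 and 7.34 at E15.5, then 9.40, 11.0 and 6.02 at E18.5. It was higher than the highest Fos promoter peak for ARID1B and FOXP1 at both stages and lower for TCF7L2 at both. Its intervals stood apart from those of the promoter for ARID1B at E15.5 only (6.54 to 9.94 against 3.79 to 6.47). The other Fos locus, 12.4 kb downstream of the TSS, had 4.01, 8.99 and 5.67 at E15.5, then 6.17, 8.95 and 6.13 at E18.5. A further group of peaks 36.0 to 37.7 kb upstream lay in the promoter of the noncoding gene Gm40477, where ARID1B reached 13.2 (E15.5) and 14.0 (E18.5), the highest ARID1B values in the Fos window.

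At Npas4 the locus 11.8 kb upstream exceeded the gene's own promoter in all 6 lists. It had 8.55, 10.8 and 5.46 at E15.5, then 10.5, 9.24 and 6.46 at E18.5. For ARID1B its intervals, 6.94 to 10.4 at E15.5 and 8.29 to 13.2 at E18.5, did not overlap those of the promoter (3.10 to 5.56 and 3.21 to 6.48). For FOXP1 and TCF7L2 they overlapped at both stages. At Nr4a1 the locus 7.7 kb upstream also exceeded the promoter in all 6 lists, with 5.70, 12.4 and 6.92 at E15.5, then 6.45, 8.95 and 7.01 at E18.5. Its intervals stood apart from those of the promoter for FOXP1 at E15.5 only (10.1 to 15.1 against 5.70 to 9.62). Of the 4853 protein-coding genes no longer than Nr4a1 that were bound in all 6 lists, 2.41% had a higher peak outside promoters in every list, and of the members 2 of 8 did.

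**Figure D4:**
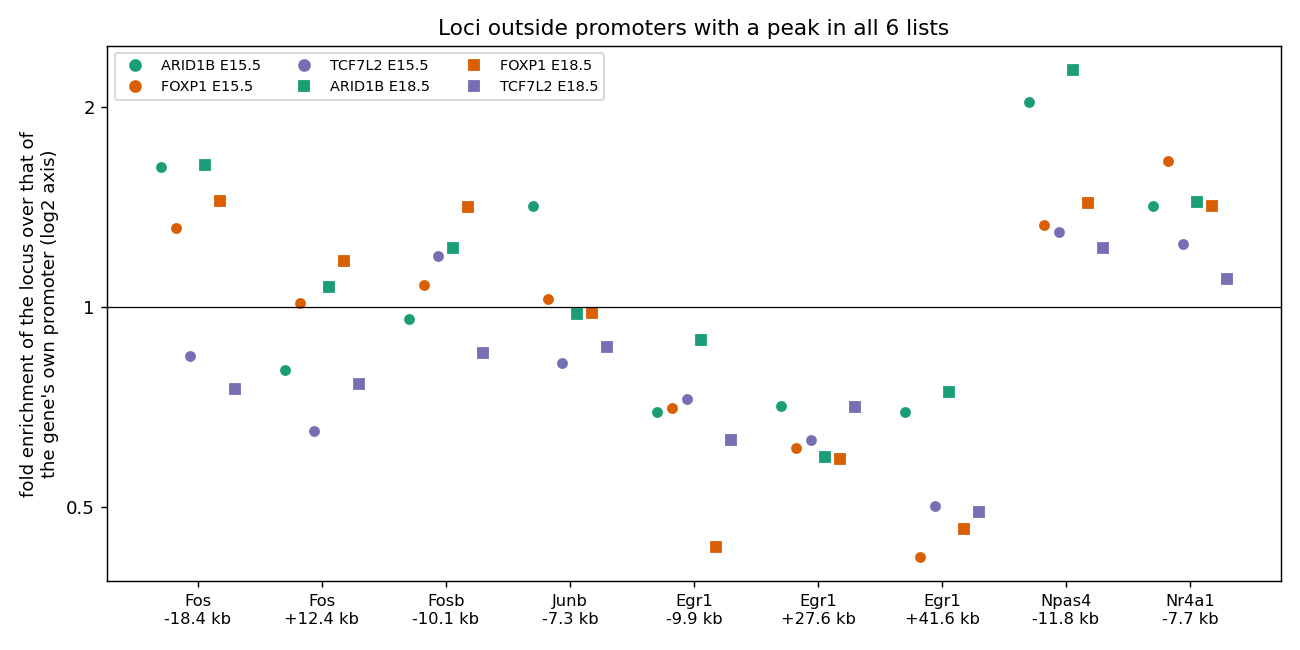
Fold enrichment of each locus outside promoters with a peak in all 6 lists, divided by that of the highest promoter peak of the same gene in the same list (vertical axis, log2 scale). Points above 1 are loci higher than the promoter, which holds in all 6 lists for Npas4 and Nr4a1 and in 0 for the 3 Egr1 loci.

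The locus 10.1 kb upstream of Fosb, in an exon of the noncoding gene D830036C21Rik, had 4.37, 10.5 and 6.40 at E15.5, then 5.33, 11.0 and 5.69 at E18.5. The locus 7.3 kb upstream of Junb had 6.59, 9.24 and 6.40 at E15.5, then 5.47, 7.47 and 6.68 at E18.5. The Egr1 loci, 9.9 kb upstream and 27.6 and 41.6 kb downstream of the TSS, ranged from 3.27 (TCF7L2, E15.5, 41.6 kb) to 7.85 (FOXP1, E15.5, 9.9 kb) and were lower than the promoter in every list. Against all loci of this kind in the genome, the 9 were above the median in 8 (E15.5) and 7 (E18.5) cases for FOXP1 and in 7 and 7 for TCF7L2, but in 3 and 3 for ARID1B.

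Jun had 3 loci outside promoters, 43.9 kb downstream and 30.6 and 26.5 kb upstream of the TSS, and the highest was 7.72 (FOXP1, E15.5, 43.9 kb). The 5 loci outside promoters in the window of Arc, whose product acts at synapses, were found in 1 to 3 lists, with fold enrichments of 2.74 to 3.65. The locus 6.6 kb upstream of Arc had peaks of FOXP1 at E15.5 (3.16) and TCF7L2 at E18.5 (2.96). FOXP1 at E18.5, the shallowest list, had 0 peaks outside promoters in the Arc window.

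The promoters of neighboring genes within the windows were bound in every list at several places. The highest peak of any window was FOXP1 at E15.5 in the promoter shared by Jrk and 4933427E11Rik, 36.8 kb upstream of Arc, with a fold enrichment of 28.2, against 10.4 for FOXP1 at E18.5 and 4.99 to 7.23 in the lists of ARID1B and TCF7L2. Near Npas4, the promoter of the mitochondrial ribosomal protein gene Mrpl11 had 13.5 for FOXP1 at E15.5. The promoter of Atg101, an autophagy gene, near Nr4a1 had 13.0 in that list, and the promoter of Hook2 near Junb had 11.0. These are above the FOXP1 promoter values of Npas4, Nr4a1 and Junb at E15.5 (8.10, 7.47 and 8.99). The intervals of Hook2 (8.83 to 13.6) and Junb (7.03 to 11.3) overlapped. The promoter shared by Asna1 and Trir near Junb reached 15.1 in that list. Other neighbors were lower than the member there, such as Peli3 near Npas4 (7.72), Gm49499 near Nr4a1 (6.83) and Rtbdn near Junb (6.83).

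Other genes of the activity response were described by lists. A first list held 15 other immediate early genes, mostly of transcription factors and their relatives, including Jund, which is largely constitutive, and Btg2, Ier2 and Ier5, which do not encode classical DNA-binding factors. Of these, 14 were bound at the promoter in every list, against 51.8% of all protein-coding genes. The exception was Egr4, with peaks in 3. Jund was the highest of these, with 9.53, 25.2 and 15.6 at E15.5, then 10.4, 15.4 and 14.9 at E18.5. Of 10 further immediate early genes whose products are not DNA-binding factors, 9 were bound in every list, against the same 51.8%. Ptgs2, the prostaglandin synthase gene, had 0, and Trib1, a pseudokinase gene, had the highest median fold enrichment over the lists (9.48).

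Of 10 late-response neuronal genes, 3 (Nptx2, Inhba and Nrn1) had a promoter peak in all 6 lists, and the neuropeptide genes Pdyn, Crh and Sst and the prohormone convertase gene Pcsk1 had 0 in any list. Nrn1, which encodes neuritin, had the highest median of this list (7.09). Of the 16 upstream regulators, such as Srf, Creb1 and Mef2d, 16 had a promoter peak in all 6 lists, with Crtc1, a CREB coactivator gene, the highest (11.0). Across all protein-coding genes, 51.8% were bound in all 6 lists and 55.0% to 61.8% in a single list, while the late-response list had 4 to 6 of 10 bound in a single list.

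The 5 protein-coding genes whose 6 promoter fold enrichments were nearest to the members' median profile, by Euclidean distance on the log2 scale over the 11376 genes with a peak in all 6 lists, were Tnfrsf21 (0.0902), Adsl (0.119), Nat8l (0.138), Ndrg4 (0.144) and Larp1b (0.166). The members themselves lay at 0.308 (Arc) to 1.08 (Jun) from that profile.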

How the data were processed

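Peak lists of ChIP-seq for ARID1B, FOXP1 and TCF7L2 in mouse cortex were analyzed. As the methods describe, the authors aligned reads with bwa (0.7.15) to GRCm38 (mm10), filtered by mapping quality and called narrow peaks against input with MACS2 (2.2.7) on merged replicates (each list is filed with the first replicate), with local background off, which makes p-values depend on 1 background per list. The deposited lists hold fold enrichment (a ratio, with a pseudocount of 1 on reads and background), −log10 of the p-value and q-value, and a score, which was not used. Depth was recovered from the lists: fold enrichment and p-value give the background and the worth of 1 read, checked on simulated data, and the depth assumes the default mouse genome size of MACS2. Peaks were joined to GENCODE vM21 (overlap of at least 1 base) with pandas and numpy, and motifs were searched in sequences from RefSeq (GRCm38.p6) with pyfaidx. No sequence of Egr1 was searched. Counts in the genome served as background, and no test was run. Members, gene lists and motifs were chosen with earlier results of these data known. Genes named besides the members were neighbors in a window, the unbound genes and the highest gene of each list, and the 5 nearest genes. Btg2, Ier2 and Ier5 were named for what they encode, and Srf, Creb1 and Mef2d as examples of their list. The neighbors Hook2, Atg101, Mrpl11, Peli3, Gm49499, Rtbdn, Asna1 and Trir were picked after their values were seen. So were, within the lists, Egr4 and the bound late-response genes. ATAC-seq, human samples and other antibodies were not analysed here.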

Additional observations from a re-analysis of the deposited data

How the results depend on the processing

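Of 52 values recomputed under 8 alternatives for 15 results, 44 stayed close to the reported one, within 1.5 times for counts and within the counting interval for fold enrichments. A further alternative, chosen after seeing the data, left out the 1 that MACS2 adds to reads and background. Under it 7 of 9 values stayed close, while the members' median FOXP1 fold enrichment at E18.5 moved from 7.62 to 9.97 (10.1 at E15.5, from 8.92) and the FOXP1 count with intervals apart went from 1 to 0. With only peaks of −log10 p of at least 15, members with a promoter locus of all 3 TRs fell to 5 (E15.5) and 4 (E18.5), against 39.6% and 35.1% of protein-coding genes under that threshold, and peaks outside promoters to 31 and 25. With 100 kb on either side, the latter rose to 161 and 133. Members with intervals apart between stages numbered 0 for FOXP1 with 99% intervals, and 1 for TCF7L2 when the summit had to lie in the promoter (1.20% of bound genes), where a lower Arc peak at E15.5 was set against the main one at E18.5. No paired analysis was possible because only 1 list was deposited for each TR and stage, read as merged replicates, and no replicate could be left out for the same reason. Fold enrichments of different lists are not on 1 scale, a shallow list holds fewer weak peaks, and peaks of neighboring genes cannot be assigned to 1 gene by distance.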
